A study of Mus musculus with 12 samples.

Results

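The elastic fibre gene set described here holds 10 genes: Fbn1, Eln, Mfap2, Mfap4, Mfap5, Ltbp1, Ltbp2, Fbln1, Fbln2 and Fbln5. They were taken by symbol from the deposited table of 19547 genes, and all 10 were present and passed the filter on low counts, which left 18551 genes tested. The tissue was fat grafts of wild-type C57BL/6 mice aged 16 weeks, taken at 8 weeks of grafting, with 12 RNA libraries in 3 groups of 4. Control grafts received nothing further as far as the labels say. CAL grafts (cell-assisted lipotransfer) had ASC added, a name commonly used for stromal or stem cells of adipose tissue, and CAL_Dll4i grafts had ASC added together with inhibition of Dll4, a ligand of Notch receptors. The means of Dll4 inhibition and the origin of the ASC are not in the labels, nor is whether each library came from its own animal. The p-values therefore measure only the spread between these libraries.

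Elastic fibres let tissue stretch and recoil. Fibrillin, encoded by Fbn1, polymerises into microfibrils together with microfibril-associated proteins (Mfap2, Mfap4, Mfap5), and tropoelastin, encoded by Eln, is laid down on that scaffold with the help of fibulins and cross-linked by lysyl oxidases. Latent TGF-beta binding proteins (Ltbp1, Ltbp2) belong to the same protein superfamily as fibrillin. Ltbp1 tethers latent TGF-beta in the matrix, whereas Ltbp2 does not bind it and is linked to microfibrils.

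RefSeq (GRCm38.p6) promoter windows were found for 7 of the 10 genes, 4 of them with a second start, giving 11 windows of 250 bases before a transcript start. Eln, Mfap4 and Mfap5 had no entry. The windows below are those of Fbln5 (chr12:101819120-101819369, minus strand), Fbln1 (chr15:85205699-85205948, plus strand) and Ltbp1 (chr17:75005279-75005528, plus strand), 1 for each of 3 members whose levels across libraries are compared further on, chosen because no annotated exon covers them. They are written 5′ to 3′ on the gene's strand, and capitals mark the matches to the motifs named after them.
Fbln5: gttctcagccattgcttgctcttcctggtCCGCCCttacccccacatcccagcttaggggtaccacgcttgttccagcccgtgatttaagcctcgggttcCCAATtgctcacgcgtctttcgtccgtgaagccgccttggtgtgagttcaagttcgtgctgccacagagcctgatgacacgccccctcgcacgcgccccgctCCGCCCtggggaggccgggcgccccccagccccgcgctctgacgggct
Fbln1: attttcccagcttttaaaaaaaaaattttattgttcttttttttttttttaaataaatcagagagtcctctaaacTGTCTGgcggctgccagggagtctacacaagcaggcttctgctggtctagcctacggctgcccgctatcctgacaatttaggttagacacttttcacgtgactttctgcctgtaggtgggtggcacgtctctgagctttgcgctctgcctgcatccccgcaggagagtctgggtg
Ltbp1: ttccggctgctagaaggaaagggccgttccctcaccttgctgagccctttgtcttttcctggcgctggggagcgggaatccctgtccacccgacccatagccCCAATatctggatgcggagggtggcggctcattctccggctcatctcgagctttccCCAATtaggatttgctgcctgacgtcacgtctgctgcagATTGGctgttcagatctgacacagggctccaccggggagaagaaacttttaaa
The capitals in the Fbln5 window are GC boxes (GGGCGG, here on the opposite strand) that begin 221 and 48 bases before the start, and a CCAAT box 150 bases before it. The Ltbp1 window holds CCAAT boxes 148, 92 and 53 bases before the start, the last on the opposite strand, and the Fbln1 window holds a CAGA box (CAGACA, on the opposite strand) 175 bases before it. Searched on both strands, the GC box was in 6 of the 11 windows against 32.74% of 32851 promoter windows in the RefSeq table. These 6 windows held 58.8% to 68.8% G and C, against a median of 52.4% over all windows. Among them, those of Fbn1, Fbln2 and Ltbp2 lie wholly in annotated exons. The CAGA box, a motif known from SMAD-bound promoters, was in 5 of the 11 against 17.13%, and CCAAT in 3 against 33.85%. An AP-1 motif (TGACTCA, 4.46% of all windows) and TATAAA (12.37%) were in none of the 11. None of these motifs overlapped another in the windows printed, windows of 1 gene can share bases, and a match describes letters only.

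The libraries held 55883051 to 70804141 counts, of which the 10 genes took 0.133% to 0.225%. The lowest count of any of them was 894, for Fbln5 in CAL replicate 1, so counting error was small beside the spread between libraries. Levels are given as CPM (counts scaled to a common library size after TMM normalisation) within a gene and as FPKM, which also divides by transcript length, between genes. Control replicate 3 stood apart: it was the highest of the 12 libraries for 8 of the 10 genes, against 16.5% of all tested genes, so the counts below are also given without it. Skeletal muscle RNA was present in 3 libraries, called muscle-bearing below, in which Acta1 reached 28.1 CPM (CAL replicate 1), 74.5 (CAL replicate 2) and 127 (CAL_Dll4i replicate 3), and the counts are likewise given without those. Leaving them out keeps only CAL replicates 3 and 4 and CAL_Dll4i replicates 1, 2 and 4. Dll4 itself was at 4.97 to 6.95 CPM in control, 3.01 to 4.22 in CAL and 3.98 to 4.95 in CAL_Dll4i grafts. In whole tissue such as this, fewer cells of a type and less RNA per cell cannot be told apart.

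Per transcript length Fbn1 was the most abundant of the 10 genes, with a mean of 89.5 ± 14.9 FPKM (SD, n = 12), and made up 31.9% to 41.0% of their summed FPKM in each library. Fbln2 came next at 36.4 ± 5.77 FPKM, followed by Mfap5 (27.8 ± 5.67), Mfap2 (27.2 ± 6.15) and Fbln1 (25.4 ± 5.10). Mfap4 stood at 18.7 ± 6.89 and Eln at 11.4 ± 3.98 FPKM, so the mean FPKM of Eln was below those of Fbn1, Mfap2, Mfap4 and Mfap5. Whether the library kit recovered the genes equally was not tested, so this order is of FPKM only. Ltbp2 (4.70 ± 2.27), Fbln5 (3.67 ± 1.18) and Ltbp1 (3.40 ± 1.02) were the lowest, 26.3-fold between Fbn1 and Ltbp1. Fbn1 exceeded Fbln2, Fbln2 exceeded Mfap5, Mfap4 exceeded Eln and Eln exceeded Ltbp2 in all 12 libraries, and Fbln1 exceeded Mfap4 in 11. The neighbours Mfap5 and Mfap2 kept their order in 7 libraries, Mfap2 and Fbln1 in 9, Ltbp2 and Fbln5 in 7, and Fbln5 and Ltbp1 in 7, and their means lie within 1 SD of each other.

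**Figure D1:**
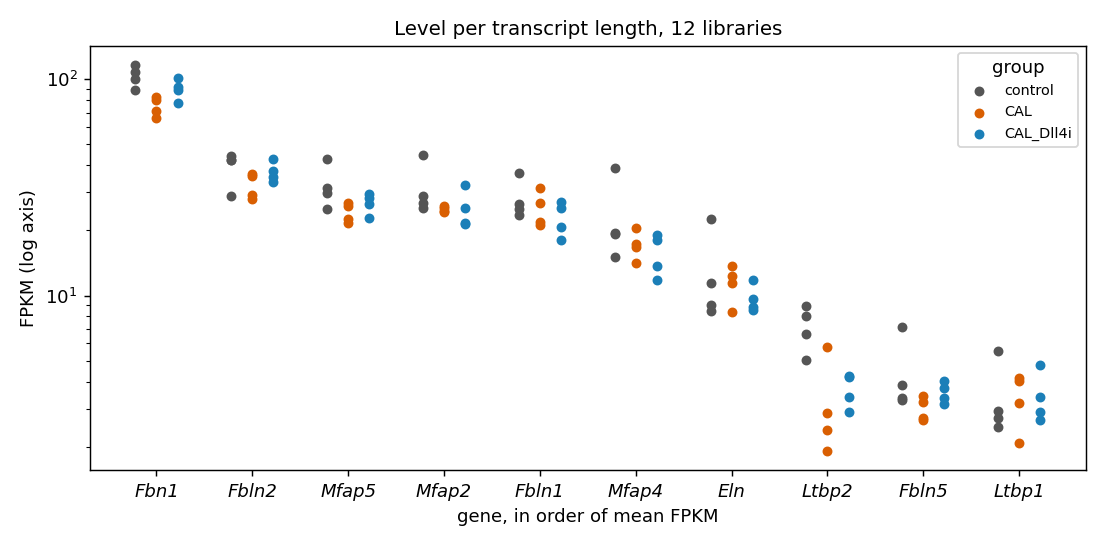
Each point is the deposited FPKM of 1 library (log axis), for the 10 genes in order of mean FPKM and for the 3 groups side by side. Fbn1 lies above every other gene in all 12 libraries, and the points of Ltbp2, Fbln5 and Ltbp1 overlap at the low end.

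The first comparison asked how grafts with added ASC differed from control grafts. All 10 estimates lay below 0 for CAL against control, where 51.6% of all tested genes did, and their median was -0.32 on the log2 scale against -0.0067 over all genes. Of RLE and upper-quartile scaling, the latter put 1 of the 10, Ltbp1, at 0.0065. None of the 10 passed edgeR's quasi-likelihood test at a Benjamini-Hochberg adjusted p under 0.05, a test that called 1 gene in all (0.00539%). At an unadjusted p under 0.05, 4 were lower (Fbn1, Ltbp2, Mfap5 and Fbln5), against 7.57% of all genes, and for 1 of them, Fbn1, the groups did not overlap, against 3.75% of genes. Without control replicate 3 the number of estimates below 0 was 7 and their median -0.13, whereas without the 3 libraries with muscle RNA all 10 stayed below 0 with a median of -0.33. At an unadjusted p under 0.05, 2 were lower with control replicate 3 left out, against 947 of the 18617 genes tested there. With the libraries holding muscle RNA left out 1 was lower, against 907 of 18690 genes. Groups did not overlap for Fbn1 and Ltbp2 in the first case (5.3% of genes lower without overlap) and for Fbn1 and Mfap2 in the second (9.01%).

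Fbn1 (gene ID 14118, chr2:125300594-125507993 on the minus strand, GRCm38), the fibrillin that forms the microfibril core, was measured at 1103, 1260, 1415 and 1320 CPM in control replicates 1 to 4. It stood at 820, 1054, 1019 and 885 CPM in the CAL replicates and at 1204, 1281, 996 and 1169 CPM in the CAL_Dll4i replicates. Every CAL library was below every control library, and CAL_Dll4i libraries overlapped both other groups. The mean was 1275 ± 131 CPM in control and 945 ± 110 in CAL grafts (SD, n = 4 each), 25.9% lower in the fit. The log2 fold change was -0.43 ± 0.10 (SE, 95% interval -0.66 to -0.21), with an unadjusted p of 0.00123 and a Benjamini-Hochberg adjusted p of 0.163 (rank 139 of all genes) by edgeR's quasi-likelihood test. DESeq2, run as an alternative, called Fbn1 at an adjusted p of 0.00948, and still did when control replicate 3 (0.0396) or the 3 libraries holding muscle RNA (0.0159) were left out. limma voom gave 0.0702. DESeq2 called 1.62% of genes lower in this comparison.

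The microfibril-associated genes lay lower in CAL grafts by estimates that were smaller without control replicate 3. Mfap5 (gene ID 50530, chr6:122505845-122529290), whose product binds fibrillin, was at 47.4, 56.7, 79.3 and 58.7 CPM in control and at 40.4, 50.1, 52.1 and 42.5 CPM in CAL grafts. Its log2 fold change was -0.39 ± 0.15, with an adjusted p of 0.268 by edgeR's quasi-likelihood test, and -0.23 ± 0.12 without control replicate 3. Control replicate 3 was the highest library and the groups overlapped. Mfap2 (chr4:141010418-141015984) was at 33.0, 35.2, 56.3 and 37.1 CPM in control against 31.7 to 34.5 in CAL, so that control replicate 3 alone stood clear of the rest. The same library carried Mfap4 (chr11:61485431-61488900), at 37.8, 29.2, 73.3 and 37.4 CPM in control against 27.9 to 40.4 in CAL. The log2 fold changes were -0.29 ± 0.17 for Mfap2 and -0.41 ± 0.26 for Mfap4, and without control replicate 3 they were -0.091 and -0.060. Mfap4 overlaps Mapk7 on the opposite strand, a gene that is also in the table, and the strand used in counting is not given, so its counts are uncertain.

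**Figure D2:**
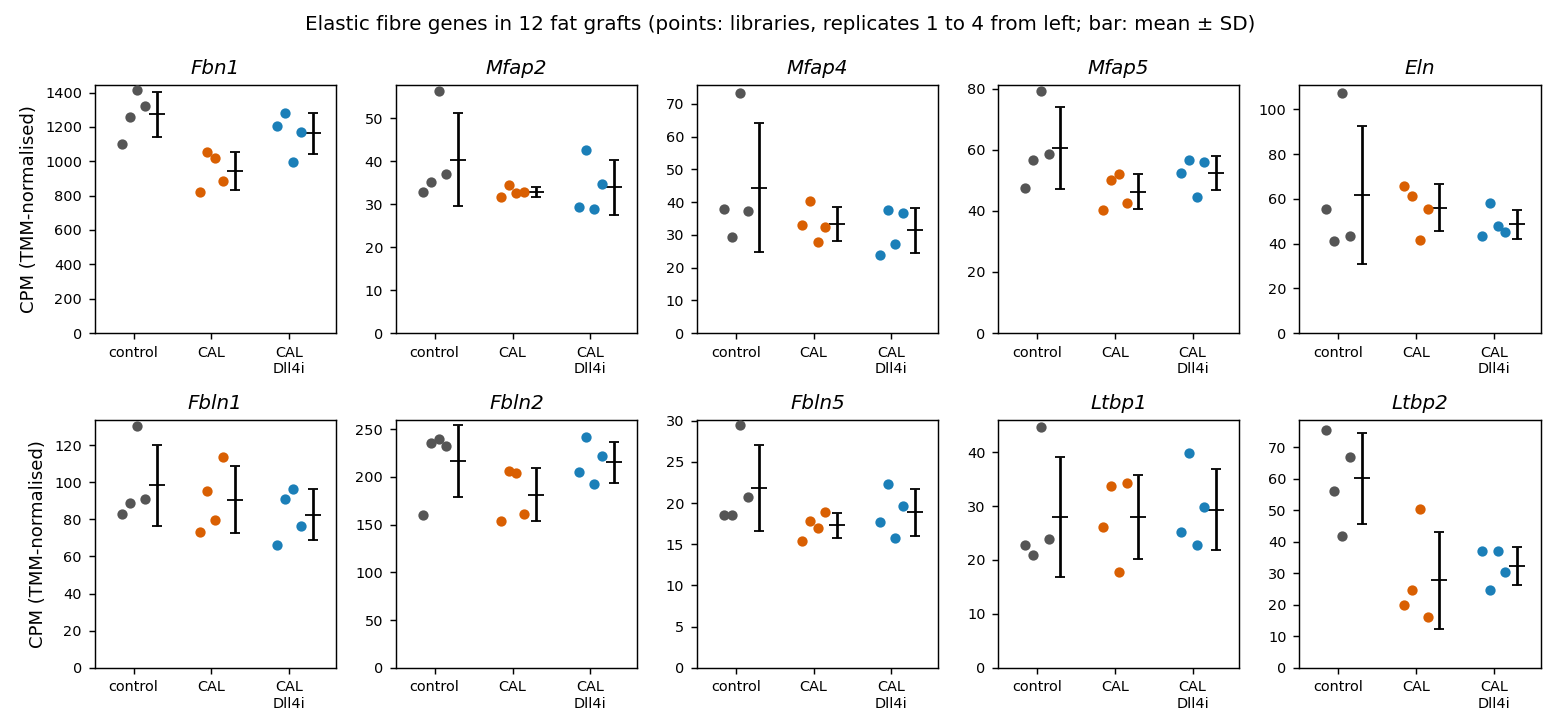
Each panel shows 1 gene, with TMM-normalised CPM from 0 on the vertical axis, a point for each library in order of replicate, and a bar for the mean ± SD of the 4 libraries of a group. The 4 CAL libraries lie below the 4 control libraries for Fbn1, and control replicate 3 is the highest point of Mfap2, Mfap4, Mfap5, Eln, Fbln1, Fbln5 and Ltbp1.

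For elastin the direction of the difference depended on control replicate 3. Eln (gene ID 13717, chr5:134702593-134747323 on the minus strand), which encodes the elastic core, was at 55.4, 41.3, 107 and 43.3 CPM in control replicates 1 to 4. It was at 65.9, 61.2, 41.6 and 55.3 CPM in CAL and at 43.3, 58.0, 48.0 and 45.2 CPM in CAL_Dll4i grafts. Apart from control replicate 3 all libraries lay between 41.3 and 65.9 CPM. The log2 fold change of CAL against control was -0.14 ± 0.28 (95% interval -0.76 to 0.47), and 0.26 without control replicate 3, so the sign rests on that library. Against control, CAL_Dll4i stood at -0.35 ± 0.28, and at 0.059 without it.

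Among the fibulins, Fbln2 (chr6:91212455-91272540), which bridges fibrillin and elastin, was the most abundant. Its levels were 160, 236, 239 and 232 CPM in control, 154, 206, 203 and 161 CPM in CAL, and 205, 241, 192 and 221 CPM in CAL_Dll4i grafts. Control replicate 1 lay with the lowest CAL libraries, far from the other 3 controls. The log2 fold change of CAL against control was -0.26 ± 0.14 (unadjusted p = 0.0922 in edgeR's quasi-likelihood test). Fbln5 (chr12:101746565-101819055), an adaptor that helps tropoelastin onto microfibrils, was at 18.6, 18.6, 29.4 and 20.8 CPM in control and 15.4 to 18.9 in CAL, a log2 fold change of -0.34 ± 0.15 (edgeR's unadjusted p = 0.0471, adjusted p = 0.336). Without control replicate 3 it was -0.16 ± 0.12. Fbln1 (chr15:85205949-85286535), a fibulin of elastic tissue and basement membranes, ranged from 82.7 to 131 CPM in control and 73.1 to 114 in CAL, with a log2 fold change of -0.12 ± 0.18, and 0.050 without control replicate 3.

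The latent TGF-beta binding proteins differed from each other. Ltbp2 (gene ID 16997, chr12:84783212-84876532 on the minus strand) was at 75.6, 56.05, 41.8 and 67.0 CPM in control and at 20.02, 24.7, 50.3 and 16.1 CPM in CAL grafts. In CAL_Dll4i grafts it was at 37.0, 24.7, 37.1 and 30.4 CPM. CAL replicate 3 reached the control range, while the other 3 CAL libraries and all 4 CAL_Dll4i libraries were below every control. The fit put CAL 53.8% below control, a log2 fold change of -1.11 ± 0.33 (95% interval -1.84 to -0.38), with an unadjusted p of 0.00651 and an adjusted p of 0.201 by edgeR's quasi-likelihood test. It was -1.57 ± 0.23 without CAL replicate 3 (edgeR, adjusted p = 0.0511) and -0.86 ± 0.44 without the 3 libraries with muscle RNA (edgeR, adjusted p = 0.600). DESeq2 called Ltbp2 at an adjusted p of 0.0152, and at 0.0340 without control replicate 3, but not without the muscle-bearing libraries (0.468). That last set keeps only replicates 3 and 4 of the CAL group, at 50.3 and 16.1 CPM.

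Ltbp1 (gene ID 268977, chr17:75005568-75392512), the form that holds latent TGF-beta, was at 22.8, 20.9, 44.6 and 23.9 CPM in control and at 26.1, 33.8, 17.7 and 34.3 CPM in CAL grafts. The CAL_Dll4i replicates were at 25.1, 39.8, 22.7 and 29.8 CPM, and all 3 groups overlapped. The log2 fold change of CAL against control was -0.0034 ± 0.29, and 0.31 without control replicate 3. Within the CAL group replicate 3 was lowest for Ltbp1 and highest for Ltbp2. The ratio of Ltbp2 to Ltbp1 counts was 3.32, 2.69, 0.936 and 2.80 in control, 0.766, 0.730, 2.84 and 0.469 in CAL, and 1.47, 0.622, 1.64 and 1.02 in CAL_Dll4i grafts. These ratios describe libraries and were not tested. Ltbp1 and Ltbp2 each overlap another annotated gene (the pseudogene Gm6276 and the antisense D030025P21Rik), as do Fbn1 (Gm9913) and Eln (Gm30003), none of them analysed here, so reads of those could not be separated.

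The second comparison added Dll4 inhibition to ASC. It shares its 4 CAL libraries with the first comparison, where they enter with the opposite sign, so the values of the 2 comparisons are not independent. For CAL_Dll4i against CAL, 7 of the 10 estimates were above 0 and 3 below it, where 48.7% of all genes were below, and their median was 0.098 on the log2 scale against 0.0039 over all genes. None passed the edgeR test, which called 0 genes (0%) although 1377 had an unadjusted p under 0.05, and DESeq2 called 0 of the 10 and 1 gene in all (0.0054%). Fbn1 was the 1 gene at an unadjusted p under 0.05, against 4.47% of genes higher at that level, and 0 of the 10 had groups that did not overlap, against 3.34% of genes in either direction. The mean of Fbn1 was 1163 ± 120 CPM in CAL_Dll4i and 945 ± 110 in CAL grafts (SD, n = 4 each), a log2 fold change of 0.30 ± 0.10 (unadjusted p = 0.0130, adjusted p = 0.659, edgeR's quasi-likelihood test). Without the libraries with muscle RNA it was 0.35 ± 0.11. Fbln2 stood at 0.25 ± 0.14 and Mfap5 at 0.18 ± 0.15, while Eln (-0.20 ± 0.28), Fbln1 (-0.13 ± 0.18) and Mfap4 (-0.089 ± 0.26) were below 0. Ltbp2 was at 0.22 ± 0.33, and at 0.67 ± 0.22 without CAL replicate 3 (edgeR, unadjusted p = 0.0119, adjusted p = 0.507), but at -0.11 ± 0.45 without the muscle-bearing libraries. With CAL_Dll4i replicate 2 left out, 5 of the 10 estimates were below 0 and the median was -0.029. Without the libraries with muscle RNA the number below 0 was 2, and 3 of the 10 were higher and 0 lower without overlap. Over all genes 31.1% did not overlap in either direction, and 15.8% were lower without overlap. Control replicate 3 is in neither group of this comparison, and without it in the fit 7 were above and 3 below 0 and 0 were without overlap.

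The third comparison set grafts with both ASC and Dll4 inhibition against control grafts. It shares its control libraries with the first comparison and its CAL_Dll4i libraries with the second, so the 3 sets of values are not independent. Of the 10 estimates 9 were below 0, where 50.4% of all genes were, and their median was -0.23 on the log2 scale against -0.0015 over all genes. Without control replicate 3 it was 7 of 10, with a median of -0.049, and without the muscle-bearing libraries 8 of 10, with a median of -0.16. None passed the edgeR test, which called 0 genes (0%) although 1284 had an unadjusted p under 0.05, and DESeq2 called 0 of the 10 against 61 genes in all (0.329%). Ltbp2 was the 1 gene at an unadjusted p under 0.05, against 3.06% of genes lower at that level, and the 1 whose groups did not overlap, against 2.35%. Its mean was 32.3 ± 5.98 CPM in CAL_Dll4i and 60.1 ± 14.6 in control grafts (SD, n = 4 each), a log2 fold change of -0.90 ± 0.33 (unadjusted p = 0.0204, adjusted p = 0.714, edgeR's quasi-likelihood test). Without control replicate 3 or without the muscle-bearing libraries, Ltbp2 was again the 1 gene of the set without overlap (4.77% and 3.67% of genes lower without overlap). Mfap4 was at -0.50 ± 0.26, and at -0.15 ± 0.18 without control replicate 3. Fbn1, at -0.13 ± 0.10, and Fbln2, at -0.010 ± 0.14, were nearer to control than in the first comparison. That difference is what the second comparison tested, and neither gene passed there.

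**Figure D3:**
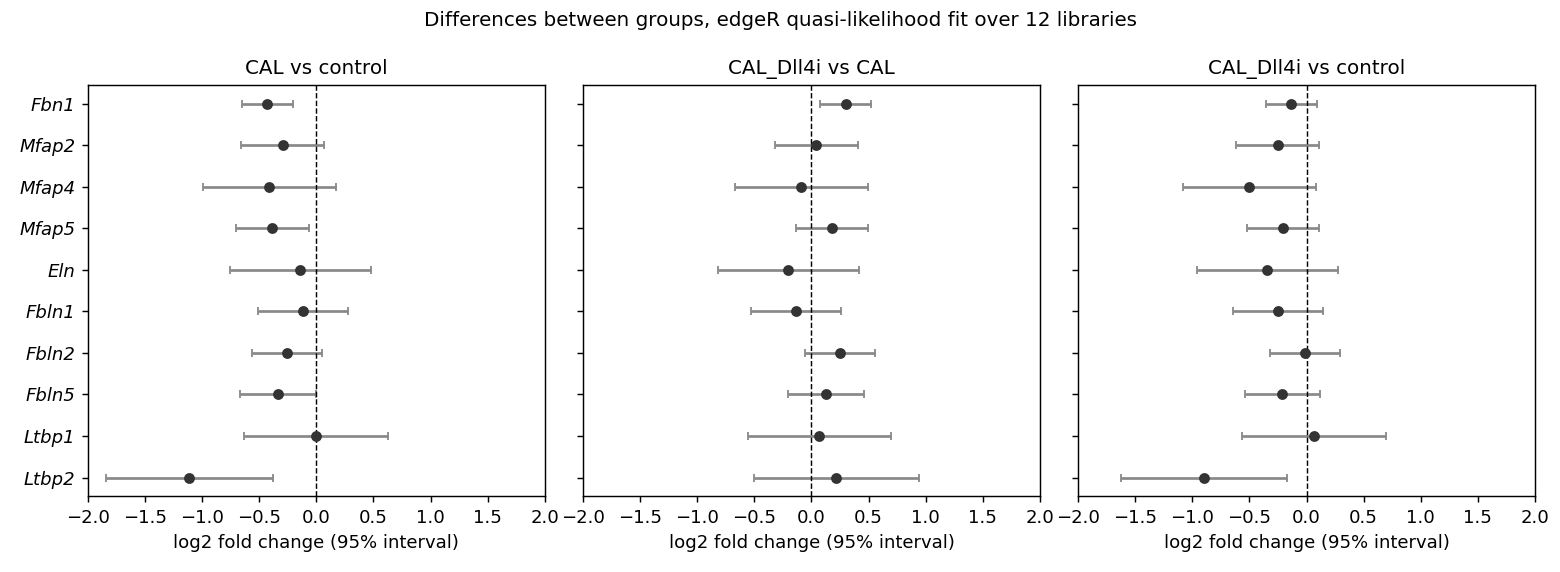
Points are log2 fold changes from the edgeR fit over 12 libraries, with 95% intervals, for the 10 genes in the 3 comparisons, and the dashed line is no difference. In CAL against control the intervals of Fbn1, Mfap5, Fbln5 and Ltbp2 lie below 0, and none of the 10 passed adjustment over all genes.

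The genes also differed in how much they varied between libraries of a group. The biological coefficient of variation was 0.110 for Fbn1, 0.143 for Fbln2 and 0.161 for Mfap5, against a median of 0.161 over all genes. It was 0.326 for Ltbp2, 0.290 for Ltbp1, 0.279 for Eln and 0.269 for Mfap4, at percentiles of 80.5 to 87.1 among all tested genes. Fbn1, at percentile 23.1, and Fbln2, at 40.7, were the steadier genes of the set. Control replicate 3 was the highest library for Ltbp1, Eln and Mfap4, and CAL replicate 3 the highest CAL library for Ltbp2. The coefficients were not computed without these libraries. Percentiles were not matched for level, and the mean of Fbn1 was 1127 CPM against a median of 14.3 over all genes.

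Across the 12 libraries the log2 CPM of the 10 genes was compared in all 45 pairs, with permutation tests (100000 resamples, two-sided) adjusted over the 45. Of these, 14 passed on Pearson's r at an adjusted p under 0.05, all positive, whereas 4 did without control replicate 3 and 10 without the muscle-bearing libraries. The genes share depth and library in each point. The share of pairs among other genes that would pass was not measured, so these counts describe the 10 genes only. Fbn1 and Mfap5 ran most closely together on ranks (r = 0.90, permutation p = 6e-05, adjusted p = 0.0018, rho = 0.96, permutation p = 4e-05, adjusted p = 0.0018), with r = 0.85 after leaving out the 2 libraries farthest in Fbn1 and 0.94 without control replicate 3. Fbln2 joined them, at r = 0.83 with Mfap5 (permutation p = 0.00015, adjusted p = 0.00225, rho = 0.91, adjusted p = 0.00285) and r = 0.86 with Fbn1 (permutation p = 0.0004, adjusted p = 0.0045, rho = 0.87, adjusted p = 0.00574), and these were 0.92 and 0.84 without control replicate 3 and 0.88 and 0.69 after leaving out the 2 farthest libraries. Mfap2 and Fbln5 had r = 0.95 (permutation p = 8e-05, adjusted p = 0.0018, rho = 0.90, adjusted p = 0.00285), with 0.85 without that library and 0.75 without the 2 farthest. For Mfap4 and Eln r was 0.84 (permutation p = 0.00361, adjusted p = 0.0162), but rho was 0.66 (adjusted p = 0.0800) and r was 0.53 without control replicate 3 and 0.47 without the 2 farthest, so that relation rests on those libraries.

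Eln and Fbn1, elastin and the fibrillin of its scaffold, had r = 0.081 over 12 libraries (rho = -0.10, permutation p = 0.805 for r and 0.747 for rho, adjusted p = 0.862 and 0.800), 0.41 without the 2 farthest in Fbn1 and -0.55 over the 11 without control replicate 3. Eln and Ltbp1 had r = 0.75 (permutation p = 0.00316, adjusted p = 0.0162, rho = 0.74, adjusted p = 0.0322), with 0.74 after leaving out the 2 farthest libraries in Eln and 0.62 without control replicate 3. Ltbp1 and Ltbp2 had r = -0.55 (permutation p = 0.0643, adjusted p = 0.108, rho = -0.61, adjusted p = 0.128), which did not pass, with -0.73 without control replicate 3 and -0.74 without the 2 farthest in Ltbp1. As deviations from group means, an alternative chosen after seeing the data, 20 of the 45 pairs passed, among them Ltbp1 with Ltbp2 at r = -0.81. Its permutations shuffled the deviations over all libraries as if no group means had been removed. The p-values behind that count are therefore too small, and it cannot be set beside the count over 12 libraries.

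**Figure D4:**
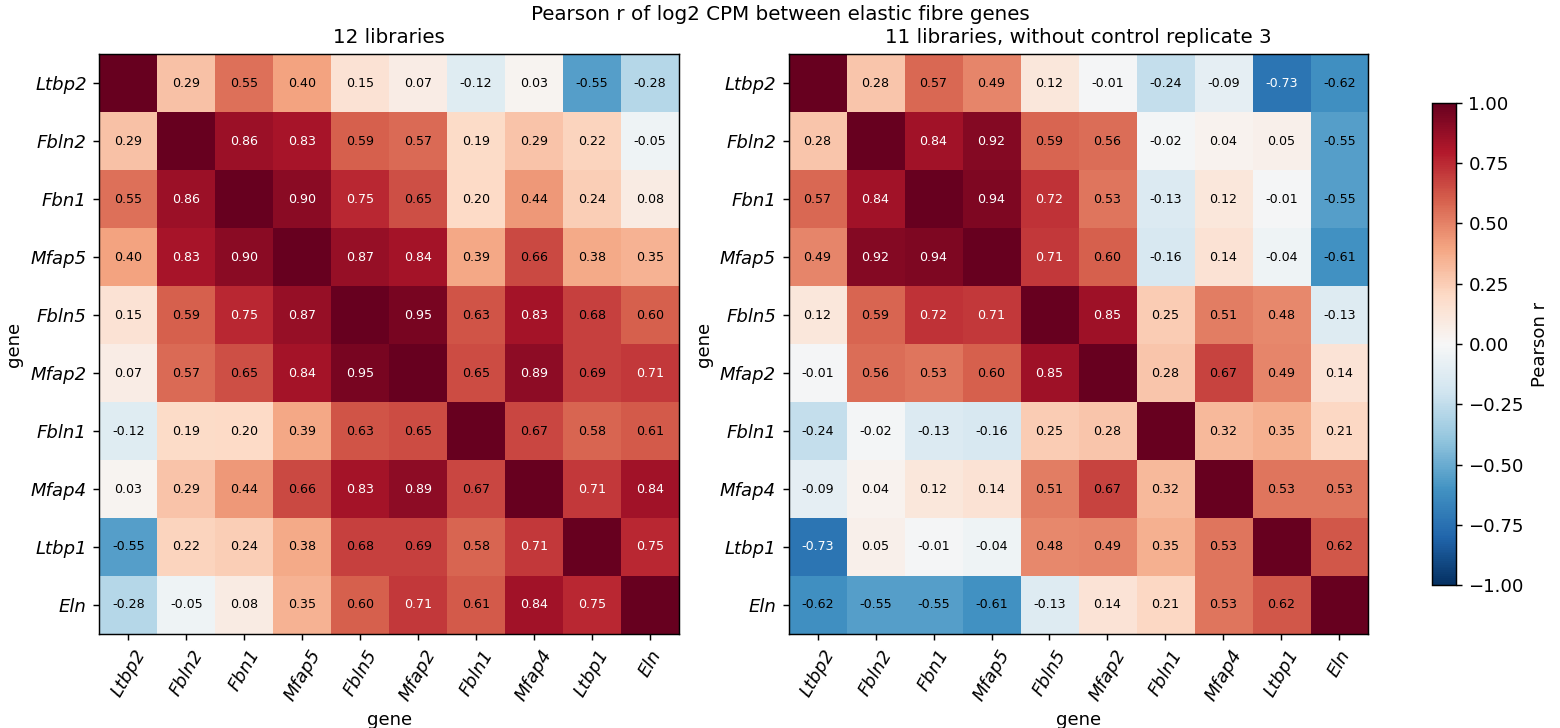
Both panels give Pearson's r of log2 CPM for every pair of the 10 genes, on a colour scale from -1 to 1, over 12 libraries on the left and over the 11 without control replicate 3 on the right. Fbn1, Mfap5 and Fbln2 keep r of 0.84 to 0.94 on the right, whereas Eln lies at -0.55 to -0.61 with these 3 genes and Ltbp1 with Ltbp2 reaches -0.73.

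The genes whose pattern was most like that of Fbn1 across 12 libraries, among 10768 genes compared, were Steap2 (r = 0.99), Loxl3 (0.98) and Robo1 (0.98). For Mfap5 they were Ifitm2 (0.98), Dnpep (0.96) and Kctd11 (0.96), and for Fbln2 they were Pam (0.96), Brinp3 (0.95) and Cpd (0.95). Eln was most like Itgbl1 (0.94) and Cilp (0.92). Poglut3 was among the 3 most alike of both Mfap2 (0.94) and Fbln5 (0.96). Ltbp1 was most like Ddr2 (0.91), and Ltbp2 most like AA467197 (0.91). These are descriptions over libraries that share depth and scaling.

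Of 23 other genes of elastic fibre assembly, 22 were tested and 0 were called by edgeR in any comparison. In CAL against control 9 estimates were above and 13 below 0, and the median was -0.11 on the log2 scale. At an unadjusted p under 0.05 there were 3 higher and 5 lower, against 1300 and 1405 of all 18551 genes. Without control replicate 3 there were 12 above and 10 below 0 (median 0.066). At that level 6 were higher and 4 lower, against 1177 and 947 of 18617 genes. Without the muscle-bearing libraries 9 were above and 13 below 0 (median -0.18). At that level 2 were then higher and 4 lower, against 875 and 907 of 18690 genes. Hmcn2, a hemicentin of the fibulin family, was at 4.87 to 15.6 CPM in control and 21.9 to 59.0 in CAL grafts. Its groups did not overlap, where 669 of all 18551 genes were higher without overlap. Its log2 fold change was 2.16 ± 0.54 (edgeR's adjusted p = 0.167). Fbln7, a short fibulin, was at 0.84 ± 0.21 (edgeR's adjusted p = 0.167). Below control without overlap were 2 of the 22, against 3.75% of all genes. The first was Fbn2, the second fibrillin, at 37.1 to 59.9 CPM in control against 18.9 to 35.1 in CAL (log2 fold change -0.81 ± 0.23). The other was the lysyl oxidase family member Loxl3 (-0.48 ± 0.13). Lox itself stood at -0.26 ± 0.10, and at -0.16 without control replicate 3. In CAL_Dll4i against CAL the list had 14 estimates above and 8 below 0, with Hmcn1 at 0.80 ± 0.26 and Emilin1, a microfibril-associated glycoprotein, at 0.30 ± 0.12 (0.46 without the muscle-bearing libraries, where the list had 15 above and 7 below). In CAL_Dll4i against control it had 13 above and 9 below, which was 18 and 4 without control replicate 3 and 17 and 5 without the muscle-bearing libraries. Hmcn2 was at 1.72 ± 0.53 there, and at 1.06 ± 0.41 without CAL_Dll4i replicate 3, the library with the most muscle RNA, and Ltbp4 was at 0.62 ± 0.25.

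Among enzymes that can degrade elastin, 11 of 13 were tested and 0 called in any comparison. In CAL against control 9 of the 11 estimates were below 0 (median -0.12), with Mmp9 at -1.12 ± 0.39, and in CAL_Dll4i against CAL 10 of 11 were above 0 (median 0.26), with the macrophage elastase Mmp12 at 0.26 ± 0.091. The neutrophil elastase gene Elane was at 29.2 CPM in control replicate 4 and at most 1.43 CPM in the other 11 libraries, so its log2 fold change of -4.66 rests on 1 library and was -1.42 without it. In CAL against control the estimates of these enzymes below 0 numbered 7 without control replicate 3 (median -0.016) and 8 without the muscle-bearing libraries. In CAL_Dll4i against CAL those above 0 numbered 10 in both cases. Control replicate 3 is in neither group of that comparison, so leaving it out is no check on those estimates. Genes of TGF-beta supply (ligands, receptors and activators) had 9 of 12 tested estimates below 0 in CAL against control, with the activator Thbs1 at -1.28 ± 0.47 and the integrin Itgb3 at -0.41 ± 0.12. In CAL_Dll4i against CAL all 12 were above 0 (median 0.091), with Thbs1 at 1.07 ± 0.46. TGF-beta response genes had 11 of 12 below 0 in CAL against control (median -0.40). Fibronectin, Fn1, stood there at -0.39 ± 0.11 without overlap between groups, against 3.75% of all genes lower without overlap. In CAL_Dll4i against CAL 12 of 12 response genes were above 0 (median 0.31). Of both lists 0 genes were called by edgeR in these comparisons. The 2 comparisons share the 4 CAL libraries with opposite sign. Low values in those libraries alone would put estimates below 0 in 1 comparison and above 0 in the other. Without control replicate 3 the estimates below 0 in CAL against control numbered 8 for supply and 10 for response, and without the muscle-bearing libraries 8 and 12. In CAL_Dll4i against CAL those above 0 numbered 10 and 12 without the muscle-bearing libraries. Without control replicate 3 they numbered 12 and 12, which is again no check, as that library is in neither group. In CAL_Dll4i against control the 2 lists had 5 of 12 and 9 of 12 estimates below 0, which were 2 and 6 without control replicate 3 and 3 and 7 without the muscle-bearing libraries.

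The summed levels of marker lists for cell types of the graft are given by group. Fibroblast markers, led by Col3a1 and Col1a1 (12 of 12 tested), summed to 6949 to 8968 CPM in control, 6956 to 8959 in CAL and 8680 to 9756 in CAL_Dll4i grafts. In CAL against control 6 of the 12 estimates were above and 6 below 0. Adipocyte markers, led by Scd1 and Fabp4 (12 of 12), summed to 1226 to 2636 CPM in control, 2926 to 4097 in CAL and 2161 to 2834 in CAL_Dll4i grafts, so every CAL library was above every other library. Smooth muscle and pericyte markers, led by Pdgfrb and Notch3 (9 of 10), summed to 315 to 449, 256 to 398 and 379 to 466 CPM in these groups. Macrophage markers, led by Gpnmb and Lyz2 (10 of 10), summed to 5041 to 5737, 5113 to 5964 and 5289 to 6168 CPM, and endothelial markers, led by Pecam1 and Cdh5 (10 of 10), to 414 to 504, 322 to 509 and 394 to 476 CPM. Lymphatic markers, led by Pdpn and Ccl21a (7 of 7), summed to 115 to 154, 83.0 to 187 and 146 to 203 CPM, Schwann cell markers, led by Pmp22 and Mbp (6 of 7), to 96.2 to 132, 107 to 125 and 108 to 120 CPM, and mesothelial markers, Krt19 and Lrrn4 (2 of 6), to 0.676 to 8.85, 1.11 to 4.80 and 0.790 to 8.49 CPM. Pdpn, the largest part of the lymphatic sum, had a mean of 107 CPM in control and 68.4 in CAL grafts. In CAL against control 6 of the 7 lymphatic estimates were above 0 (median 0.70) and 1 below it, and 0 were called by edgeR. Keratinocyte markers, led by Krt14 and Krt5 (6 of 9), summed to 10.8 to 266, 9.98 to 85.8 and 11.97 to 502 CPM, and skeletal muscle markers, led by Atp2a1 and Acta1 (6 of 11), to 3.15 to 7.64, 3.09 to 390 and 9.69 to 658 CPM. Listed markers outside the tested genes were not analysed here. The part of these cell types in the differences above was not tested.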

How the data were processed

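RNA of 12 fat graft libraries was measured by RNA sequencing from total RNA with a SureSelectXT RNA Direct kit, per the labels' protocols. Reads were processed with HISAT2 and StringTie on mouse build mm10, per the submitters' processing notes, with no versions given. The authors deposited, per the file headers, an estimated count, an FPKM and a TPM value for each gene and library. The deposited counts are whole numbers, so rounding changed none, and the strand and filters used in counting are not given in the sources used here. FPKM, scaled by the authors for length and depth, was used for levels between genes, and the deposited TPM only as an alternative.

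Counts were scaled by TMM and filtered with filterByExpr in edgeR 4.0.16 (R 4.3.3), leaving 18551 of 19547 genes. edgeR's quasi-likelihood test (robust, 12 libraries in 1 fit) was run for 3 comparisons with Benjamini-Hochberg adjustment over all genes, and genes were called at an adjusted p under 0.05. Alternatives were RLE and upper-quartile scaling, other filters (none, and 1 CPM in 4 libraries), voom with sample weights in limma 3.58.1, DESeq2 1.42.0, a fit of the 2 groups alone, a replicate block from the title numbers, each library left out in turn, and leaving out libraries above 10 CPM of Acta1. Member pairs without control replicate 3 or as deviations from group means, and DESeq2 without control replicate 3 or without the libraries above 10 CPM of Acta1, were chosen after seeing the data, as were the counts of lists and of groups without overlap in those smaller sets of libraries. The main fit did not pair libraries by the numbers in the sample titles. Of 12 pairs with the same number, 2 had correlated deviations over 0.1 (r from -0.39 to 0.14), which cannot exclude that libraries were paired.

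The members, lists and alternatives were chosen with earlier results of these data known. Named genes are the 10 members, genes among the 3 with the smallest p of each other pathway list in a comparison, the 2 most abundant genes of each marker list, Dll4, and the 3 genes most alike to a member among genes with a mean log2 CPM of at least 3. Fbn2 and Lox were named for their role after their values were seen. Coordinates are those of GENCODE on GRCm38, and promoters are from RefSeq. The code was tested on simulated data. Python 3.11.15 with matplotlib 3.10.9 drew the figures. Genes without a line in the table were not analysed here, and not every gene the rule names is reported here.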

Additional observations from a re-analysis of the deposited data

Results flagged for a closer look

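In 30 groups of 4 libraries (10 genes in 3 groups), the highest and lowest library were compared with the others by Dixon's ratio, which chance exceeds in about 1 in 20 groups. It was exceeded in 2 groups. Fbln2 was at 160 CPM in control replicate 1, far below the other 3 control libraries, which lay between 232 and 239 CPM. Ltbp1 was at 44.6 CPM in control replicate 3, far above the other 3 control libraries, which lay between 20.9 and 23.9 CPM. Leaving out control replicate 3 turned the CAL against control estimate of Ltbp1 from -0.0034 to 0.31, as given above.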

How the results depend on the processing

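The difference between CAL and control stayed below 0 in all 23 alternatives for Fbn1, Ltbp2, Mfap2, Mfap4, Mfap5, Fbln2 and Fbln5. Of the 23, 4 left out a CAL_Dll4i library, which is in neither group and could hardly move these estimates. The same holds in each comparison for the libraries of the group not compared. The sign of CAL against control turned for Ltbp1 with upper-quartile scaling (0.0065), the filter at 1 CPM (0.0060), voom (0.19) and only the groups compared (0.0014). For Eln it turned with voom (0.19). DESeq2 without control replicate 3 gave 0.27 for Eln, 0.056 for Fbln1 and 0.32 for Ltbp1. With each library left out in turn the estimates ran from -0.12 to 0.31 for Ltbp1, -0.29 to 0.26 for Eln and -0.25 to 0.050 for Fbln1. For CAL_Dll4i against CAL, leaving out the 3 libraries above 10 CPM of Acta1 gave 0.12 for Mfap4, 0.012 for Eln and -0.11 for Ltbp2, and DESeq2 on the same libraries 0.12, 0.011 and -0.11. There the estimates with each library left out ran from -0.090 to 0.11 for Mfap2, -0.19 to 0.022 for Mfap4 and -0.12 to 0.18 for Ltbp1. For CAL_Dll4i against control, Fbln2 turned with upper-quartile scaling (0.0051), with the replicate block (0.0053), without the libraries above 10 CPM of Acta1 (0.040) and with DESeq2 without those libraries (0.042) or without control replicate 3 (0.044). Eln turned with voom (0.012) and with DESeq2 without control replicate 3 (0.062). With each library left out the range was -0.13 to 0.040 for Fbln2, -0.50 to 0.059 for Eln and -0.11 to 0.38 for Ltbp1. The replicate block changed no call: 1 gene was called in CAL against control and 0 in the other 2 comparisons.

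The number of genes called depended on the tool. For CAL against control edgeR called 1, DESeq2 616 (514 without control replicate 3, 301 without the libraries above 10 CPM of Acta1), voom 88, the fit of only the groups compared 0 and edgeR without the libraries above 10 CPM of Acta1 0, with 0 to 6 when each library was left out. Of the 10 elastic fibre genes DESeq2 called 2, and 2 and 1 in those smaller sets, and no other alternative called any. For CAL_Dll4i against CAL DESeq2 called 1, 20 and 235 genes in the same order, and for CAL_Dll4i against control 61, 62 and 58. The cause of these differences was not tested. Of the 45 pairs of genes, 14 passed over 12 libraries and 4 without control replicate 3. With 4 libraries a group, an exact permutation test of 1 gene cannot go below p = 0.0286.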
